A study of Mus musculus with 6 samples.

Results

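Hedgehog pathway genes were examined by name in RNA-Seq data from microdissected craniofacial tissue of E12.5 mouse embryos. The set holds 9 of the 38553 genes with a deposited value, *Shh*, *Ptch1*, *Smo*, *Gli1*, *Gli2*, *Gli3*, *Hhip*, *Cdon* and *Boc*, and each was found once in the table of all samples. The 3 controls carried *Rbfox2* flox/flox without Cre, and the 3 *Rbfox2* mutants carried Pax3Cre/+ together with *Rbfox2* flox/flox, so that both groups shared the floxed alleles, the stage and the tissue. Only the mutants carried Cre, so effects of the Pax3Cre allele and of *Rbfox2* loss cannot be told apart. The mean of Y-linked genes was over 1 FPKM in 2 mutant libraries and in 0 control libraries. By this measure sex was not balanced between the groups. Pax3Cre is a knock-in at *Pax3* whose recombination covers the neural crest from before its migration and extends to paraxial mesoderm and tissues of the somites, and the mice were of mixed genetic background. The dissected tissue also holds cells outside these lineages, such as surface epithelium, so each value is an average over cells with and without recombination.

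Hedgehog ligands are secreted proteins that bind Ptch1, a membrane receptor that keeps Smo silent while no ligand is bound. Cdon and Boc are co-receptors that present the ligand to Ptch1, and Hhip is a cell surface decoy that binds ligand and limits its spread. Once Smo is released it acts through the primary cilium on the Gli transcription factors, of which Gli2 is the main activator, Gli3 is mostly cut to a repressor when no ligand is present, and Gli1 is both an effector and a product of the signal. *Gli1*, *Ptch1* and *Hhip* are induced by the pathway and serve as readouts of it. In the developing face Shh comes from the oral and facial epithelium and from the ventral forebrain, and the neural crest-derived mesenchyme beneath responds to it during growth of the facial prominences and the palatal shelves.

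*Hhip* and *Ptch1* are shown at the level of their promoters because both genes are induced by the pathway, and the groups did not overlap for *Hhip* while they overlapped for *Ptch1*. The sequences are the 250 bases before a RefSeq start on GRCm38.p6, on the strand of the gene, with every GC box (GGGCGG, either strand) in capitals. They lie at chr8:80058009-80058258 on the minus strand for *Hhip* and at chr13:63565736-63565985 on the minus strand for *Ptch1*, whose gene extends further 5′ to other starts.
Hhip: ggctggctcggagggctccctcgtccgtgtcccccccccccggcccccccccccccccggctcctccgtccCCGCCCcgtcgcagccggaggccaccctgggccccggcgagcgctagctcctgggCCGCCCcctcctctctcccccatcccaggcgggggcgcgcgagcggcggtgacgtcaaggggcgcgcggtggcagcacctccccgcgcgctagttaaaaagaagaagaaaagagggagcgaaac
Ptch1: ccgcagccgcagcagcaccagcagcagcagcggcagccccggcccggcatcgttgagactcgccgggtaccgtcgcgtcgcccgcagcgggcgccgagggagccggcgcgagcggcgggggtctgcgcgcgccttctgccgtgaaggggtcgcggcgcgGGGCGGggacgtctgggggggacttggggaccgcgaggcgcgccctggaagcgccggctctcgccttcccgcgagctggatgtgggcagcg
Over the 300-base windows of the RefSeq promoter table, which also cover the first 50 transcribed bases, the *Hhip* window held 2 GC boxes and the *Ptch1* window held 1. The GC content was 73.7% for *Hhip* and 76.3% for *Ptch1*, against a median of 52.7% over all 32851 windows, of which 35.7% held a GC box. The consensus bound by Gli proteins, GACCACCCA on either strand, was in 0.253% of all windows and in none of the 6 windows matched to the genes described here (*Smo*, *Cdon*, *Ptch1*, *Gli3*, *Gli2* and *Hhip*), which says only that these letters are not within these windows.

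The libraries were not alike within groups. On the 10061 genes tested, the first principal component held 54.7% of the variance. Its scores were -19.1 and -17.0 in the first replicates of controls and mutants and between 7.55 and 11.0 in the other 4 libraries. The deposited values are FPKM, fragments scaled to gene length and to the mapped fragments of the library, which summed to between 528123 and 590174 per library, and the files do not hold the number of fragments behind a single value. *Rbfox2* itself ranged from 34.3 to 38.1 FPKM in mutants and from 58.4 to 65.0 in controls, so that every mutant lay below every control. Differences are given on the log2(FPKM + 1) scale as mutant minus control, a scale on which changes in low FPKM come out too small. On this scale *Rbfox2* differed by -0.75 (standard error 0.079), with an adjusted p of 0.14 in limma. The targeted gene itself thus did not reach an adjusted p under 0.05.

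The order of the pathway genes was led by the signal transducer. Over all 6 libraries *Smo* had the highest mean FPKM, 75.4, followed by *Cdon* at 27.7, *Boc* at 23.4, *Ptch1* at 22.4, *Gli3* at 18.3, *Gli1* at 16.6 and *Gli2* at 14.7. The ligand *Shh*, at 3.35, and the decoy *Hhip*, at 1.72, stood lowest, and the mean of *Smo* was 43.8 times that of *Hhip*. FPKM is per length, so these levels can be set side by side. Neighbours in this order were compared within libraries by an exact two-sided sign-flip permutation test, whose smallest p with 6 libraries is 0.03125. *Smo* above *Cdon*, *Cdon* above *Boc*, *Ptch1* above *Gli3* and *Gli2* above *Shh* held in 6 of 6 libraries (exact p = 0.03125 each, adjusted p = 0.0625 over the 8 neighbour pairs). *Shh* was above *Hhip* in 5 of 6 libraries (exact p = 0.0625, adjusted p = 0.10). *Boc* and *Ptch1* could not be separated (4 of 6 libraries, exact p = 0.25), nor *Gli3* and *Gli1* (3 of 6, exact p = 0.25), nor *Gli1* and *Gli2* (4 of 6, exact p = 0.1875).

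**Figure D1:**
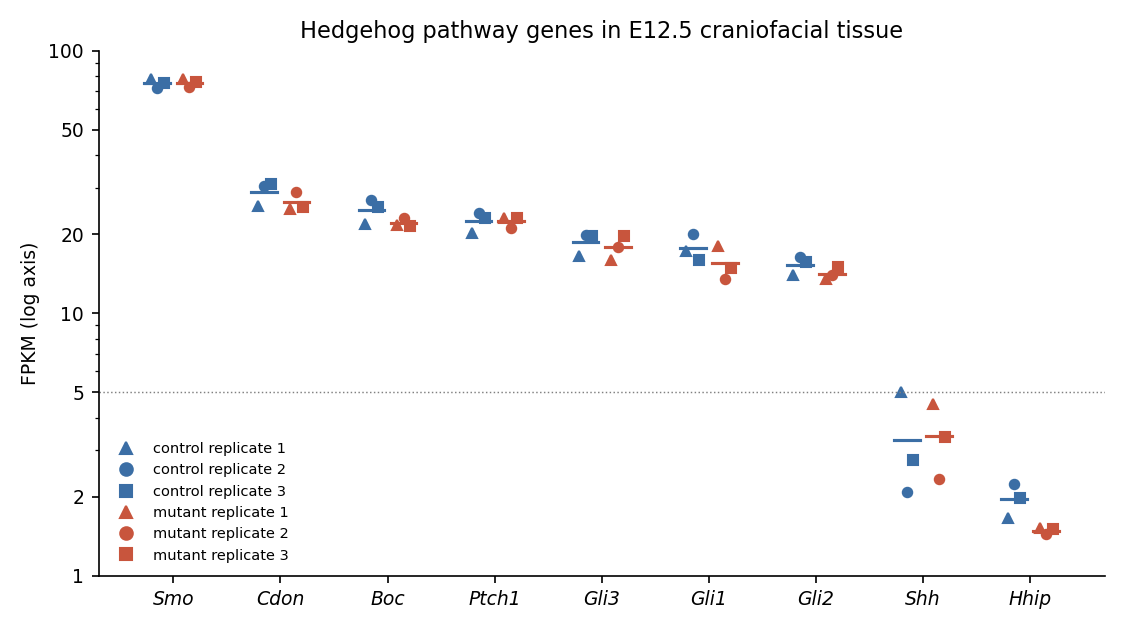
FPKM of the 9 Hedgehog pathway genes on a log axis, with 1 point per library (blue, control, and red, mutant, with the shape giving the replicate number) and a line at each group mean. The dotted line marks an FPKM of 5. *Smo* sits near 75.4, a band of 6 genes lies between 13.5 and 31.0, and *Shh* and *Hhip* lie lowest, with only the *Hhip* points of the groups apart.

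The comparison of mutants with controls asks how loss of *Rbfox2*, together with the Pax3Cre allele, bears on the tissue. Of the 9 genes, 7 passed the FPKM filter (over 5 in all libraries of a group) and were tested with limma among 10061 genes. An adjusted p under 0.05 was reached by 0 of the 7 and by 0% of all genes tested. An unadjusted p under 0.05 was likewise reached by 0 of the 7, against 1.66% of all genes tested. With the replicate number as a block both counts were again 0, where 6.0% of all genes had an unadjusted p under 0.05. Of the 7, 5 had a log2 fold change under 0, against 47.2% of all genes tested, and the median was -0.11 against 0.0057. After median-ratio scaling of the libraries 6 of the 7 were under 0, with quantile normalization 5, and with a covariate for Y-linked expression 4, with a median of -0.023. *Shh* and *Hhip* did not pass the filter and their values come from the same fit with no filter. In whole tissue, fewer cells that express a gene and less RNA of it per cell cannot be told apart.

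The ligand was the most variable of the genes. *Shh* (ENSMUSG00000002633, GRCm38 chromosome 5, 28456815 to 28467256, minus strand, 3 exons) had FPKM of 5.0, 2.08 and 2.77 in control replicates 1, 2 and 3 and 4.5, 2.34 and 3.39 in mutant replicates 1, 2 and 3. The first replicate was the highest library of each group, and the groups overlapped over nearly their whole range. Reads of *Shh* may be shared with *9530036O11Rik* and *Gm26894*, which overlap it on the other strand. Controls averaged 3.28 ± 1.53 and mutants 3.41 ± 1.08 (SD, n = 3 each). The log2 fold change was 0.072 (standard error 0.30, 95% interval from -0.66 to 0.80), and with the replicate block its 95% interval narrowed to between -0.24 and 0.39. Both intervals include 0 and span changes of *Shh* in either direction. The pairing behind the block was read from these same data. The mean of the first replicates was 1.80 times that of the other 4 libraries, and within replicate numbers the mutant differed from the control by -0.12, 0.12 and 0.22 on the log2 scale.

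Summed markers of tissues that hold *Shh*-expressing cells differed along this split. The summed FPKM of 7 ventral forebrain and floor plate markers was 37.5 and 35.2 in the first replicates of controls and mutants, and 19.7 to 23.0 in the other libraries. Of these 7 markers, 4 were higher in both first replicates than in every other library, against 14.7% of all genes with a value over 0, among them *Nkx2-1* of the ventral forebrain and *Foxa2* of the floor plate. The sum of 10 surface and oral epithelium markers ran the other way, at 155 and 157 in the first replicates and 164 to 271 in the other libraries. Of these 10 markers, 4 were lower in both first replicates than in every other library. That is near the share of all genes tested, 34.7%. The sum of 10 facial mesenchyme markers was 380 to 468 over all libraries, with overlapping groups, and no marker of these lists was at 0 in all libraries. The part of these tissues in the *Shh* values was not tested.

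**Figure D2:**
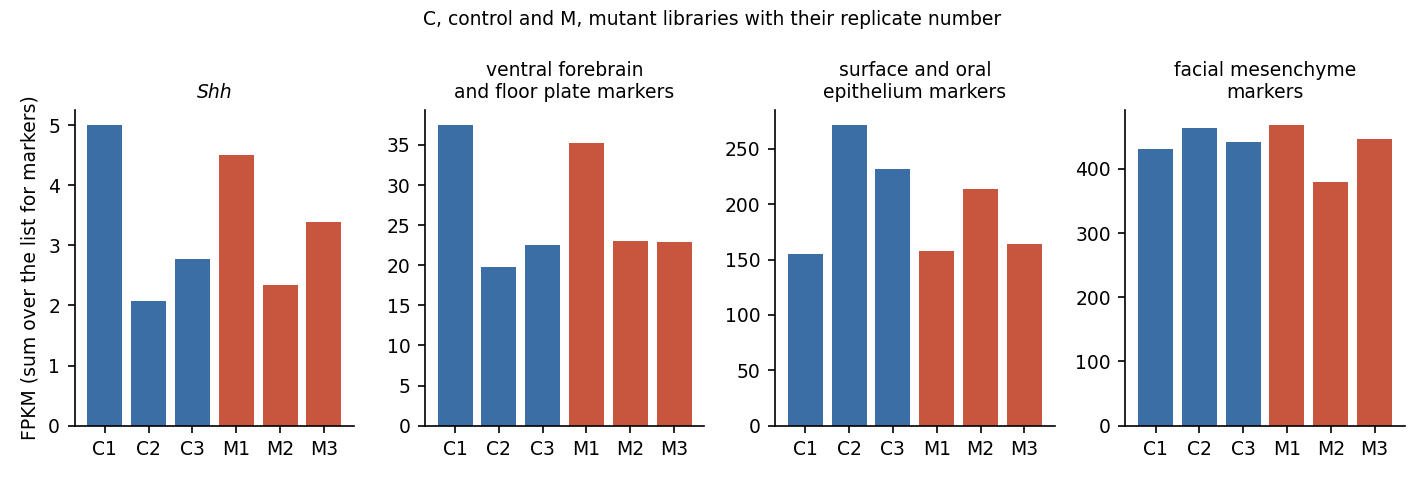
FPKM of *Shh* and summed FPKM of 3 marker lists in each library, with control libraries (C) in blue and mutant libraries (M) in red. *Shh* and the ventral forebrain and floor plate sum are highest in C1 and M1, where the epithelium sum is lowest.

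The receptor and the co-receptors did not change past the test. *Ptch1* (ENSMUSG00000021466, minus strand of chromosome 13 from 63508328 to 63573598) was at 20.2, 24.1 and 23.0 FPKM in controls and 23.1, 21.1 and 23.0 in mutants, so that the groups overlapped. Its means were 22.4 ± 1.98 and 22.4 ± 1.12 (SD, n = 3 each), and the log2 fold change was 0.00032 (standard error 0.090, 95% interval from -0.21 to 0.21). Mutant minus control was 0.19 for *Ptch1* in replicate 1, -0.18 in replicate 2 and -0.0026 in replicate 3. The interval bounds a change in *Ptch1* to between 0.864 and 1.16 times the control on this scale.

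*Cdon* (ENSMUSG00000038119, plus strand of chromosome 9 from 35421128 to 35507652) and *Boc* (ENSMUSG00000022687, minus strand of chromosome 16 from 44485049 to 44558897) encode related co-receptors of the immunoglobulin superfamily. *Cdon* was at 25.5, 30.4 and 31.0 FPKM in controls and 25, 29.0 and 25.3 in mutants. *Boc* was at 21.9, 27.1 and 25.3 in controls and 21.7, 23.0 and 21.4 in mutants. In both genes control replicate 1 lay within the range of the mutants and the mutant was the lower library in each replicate number. The log2 fold change was -0.13 for *Cdon* (standard error 0.10, 95% interval from -0.37 to 0.12) and -0.16 for *Boc* (standard error 0.095, 95% interval from -0.38 to 0.065). For *Boc* the difference was -0.016 in the first replicates and -0.23 over replicates 2 and 3. With replicates 2 and 3 only, *Boc* had an unadjusted p of 0.020 in limma. In that setting 1130 of 10258 genes had an unadjusted p under 0.05, against 167 of 10061 over all libraries. Leaving out control replicate 1 moved *Boc* to -0.24 (unadjusted p = 0.022 in limma), where 690 of 10224 genes had an unadjusted p under 0.05. Leaving out control replicate 2 moved *Boc* to -0.094 (unadjusted p = 0.39 in limma). The difference in *Cdon* was -0.21 when control replicate 1 was left out, -0.19 when mutant replicate 2 was, and -0.077 when control replicate 3 was.

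*Smo* (ENSMUSG00000001761, plus strand of chromosome 6 from 29735503 to 29761365), the membrane protein that passes the signal on, was the steadiest of the 9 genes. Its FPKM was 78.3, 72 and 75.3 in controls and 77.8, 72.8 and 76.1 in mutants, a coefficient of variation of 3.40% over the 6 libraries, against 35.4% for *Shh*. The libraries with the same replicate number lay within 0.016 of each other on the log2 scale. The log2 fold change was 0.0076 (standard error 0.074, 95% interval from -0.17 to 0.18).

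The means of the 3 Gli factors were lower in mutants, with overlapping groups and intervals that included 0. *Gli2* (ENSMUSG00000048402, minus strand of chromosome 1 from 118834132 to 119053619) was at 14.0, 16.3 and 15.6 FPKM in controls and 13.5, 13.9 and 15 in mutants, and its log2 fold change was -0.11 (standard error 0.088, 95% interval from -0.31 to 0.10). *Gli3* (ENSMUSG00000021318, plus strand of chromosome 13 from 15463235 to 15730026) was at 16.5, 19.9 and 19.7 in controls and 16.0, 17.9 and 19.6 in mutants, and its log2 fold change was -0.065 (standard error 0.11, 95% interval from -0.32 to 0.19). Both genes were lower in the mutant within each replicate number, and *Gli3* was lower in both first replicates than in every other library. *Gli2* moved to -0.17 without control replicate 1, to -0.061 without control replicate 2 and to -0.023 with a covariate for Y-linked expression. The sign of *Gli3* turned when mutant replicate 1 was left out, to 0.0078, and with the same covariate, to 0.073.

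*Gli1* (ENSMUSG00000025407, minus strand of chromosome 10 from 127329882 to 127341974), whose transcription reads out the activity of the pathway, was at 17.3, 20 and 16.0 FPKM in controls and 18.0, 13.5 and 14.9 in mutants. Mutant replicates 2 and 3 were the lowest of the 6 libraries, while mutant replicate 1 was above control replicates 1 and 3. The means were 17.8 ± 2.05 and 15.5 ± 2.31 (SD, n = 3 each), and the log2 fold change was -0.19 (standard error 0.13, 95% interval from -0.49 to 0.11, exact two-sided permutation p = 0.30). The difference was 0.054 in the first replicates, -0.53 in replicate 2 and -0.092 in replicate 3. How it divides between numbers 2 and 3 depends on their pairing, which the data did not tell apart. Leaving out mutant replicate 1 moved the *Gli1* difference to -0.30 (unadjusted p = 0.041 in limma), where 414 of 10148 genes had an unadjusted p under 0.05. Leaving out control replicate 2 or mutant replicate 2 moved it to -0.11 or -0.10. Reads of *Gli1* may also be shared with *Arhgap9* and *Gm47200*, which overlap it on the other strand. Each of the 9 genes overlaps 1 or 2 annotated genes, among them *Gm13717* for *Smo* and *A930032L01Rik* for *Ptch1*, on the same strand. The kit keeps strand, and whether the counting used it is not given in the sources used here.

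*Hhip* (ENSMUSG00000064325, minus strand of chromosome 8 from 79965851 to 80058006, 13 exons) was the 1 gene of the 9 whose groups did not overlap. Its FPKM was 1.66, 2.23 and 1.98 in controls and 1.51, 1.44 and 1.51 in mutants. Every mutant library was below every control, although control replicate 1 was only 0.080 above mutant replicate 1 on the log2 scale. Controls averaged 1.95 ± 0.286 and mutants 1.49 ± 0.0423 (SD, n = 3 each), which is 76.0% of the control mean (exact two-sided permutation p = 0.10, the smallest that 3 against 3 can give). Of all genes with a value over 0, 3.33% had the 3 mutants below the 3 controls and 6.34% had no overlap in either direction. Among the genes tested, which leave out *Hhip*, 5.0% had no overlap in either direction. The log2 fold change was -0.24 (standard error 0.10, 95% interval from -0.50 to 0.010), with an adjusted p of 1.0 and an unadjusted p of 0.057 in limma with no filter. Over the alternatives the unadjusted p ran from 0.022 to 0.197, and without control replicate 2 the log2 fold change was -0.18. The sum of 6 skeletal muscle markers was likewise highest in control replicate 2, at 363 FPKM, against 138 to 224 in the other libraries. So were the sums for surface and oral epithelium (271), endothelium (88.1) and cartilage and bone (195). The sums for facial mesenchyme, ventral forebrain and floor plate, forebrain progenitors, neurons and erythroid cells were highest in other libraries. The part of these tissues in the *Hhip* values was not tested.

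**Figure D3:**
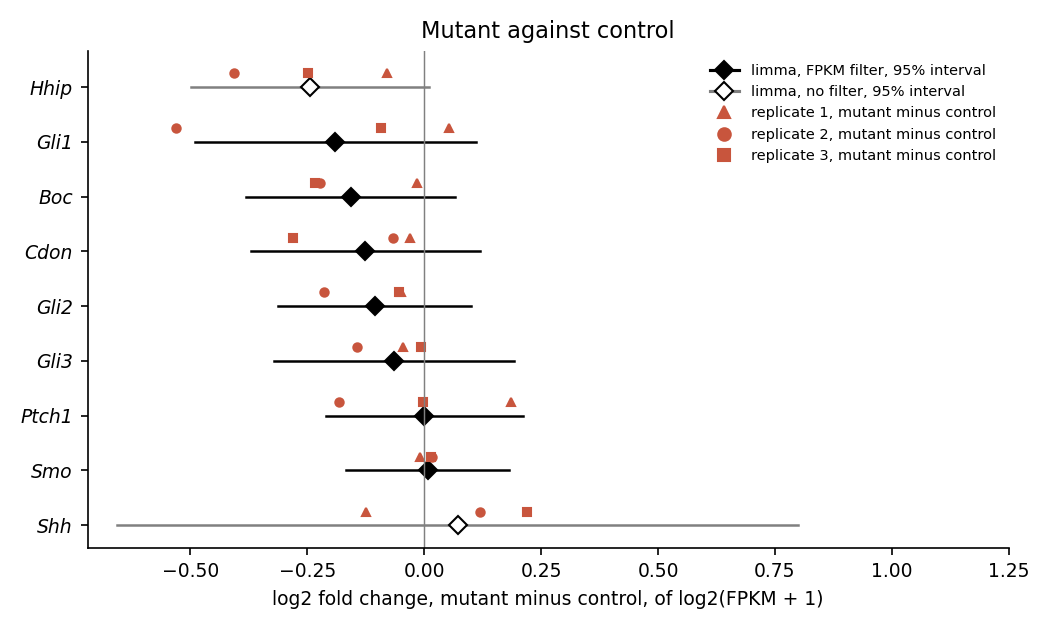
Log2 fold change of each gene with its 95% interval from limma (filled diamonds, with the FPKM filter, and open diamonds, with no filter) and the mutant minus control difference within each replicate number (red points). Every interval includes 0, and the *Hhip* interval ends nearest to it, at 0.010.

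The genes whose transcription is raised by the signal did not share 1 pattern of values. *Ptch1* was level, and *Gli1* was lower in replicates 2 and 3 and higher in replicate 1. For *Hhip* every mutant library lay below every control, so that any pairing gives a lower mutant.

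**Figure D4:**
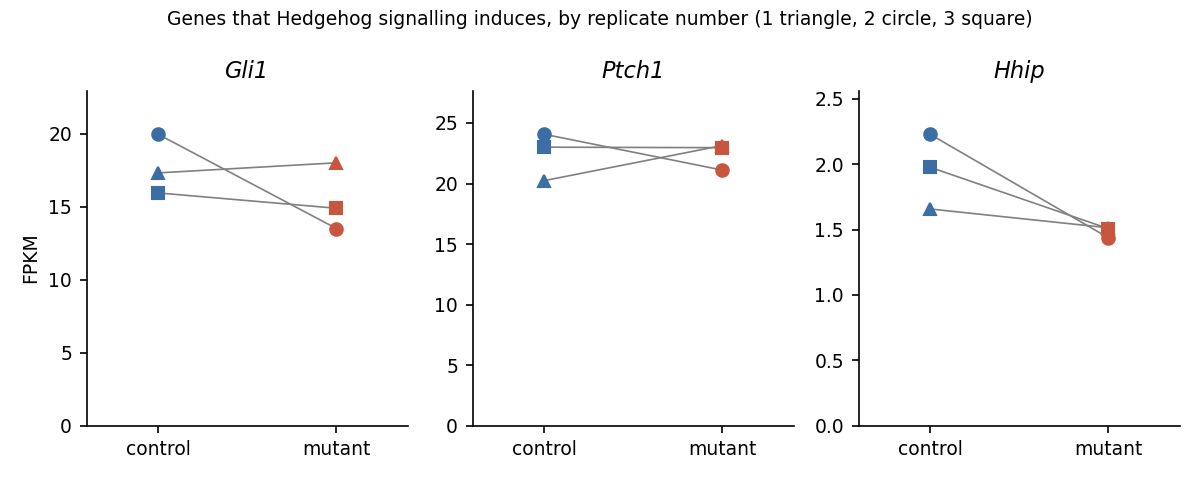
FPKM of 3 genes that Hedgehog signalling induces, with control and mutant libraries of the same replicate number joined by a line. *Hhip* has the lower value at the mutant end of 3 of 3 lines and *Gli1* of 2 of 3, while *Ptch1* has the higher value at the mutant end of the line of the first replicates. Replicate numbers 2 and 3 were not told apart as pairs, so the data do not settle which of their libraries belong together.

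Other genes of the pathway were taken from a list of 56 entries by role, of which 55 were found and 45 passed the FPKM filter. Of the 45, 1 was higher and 1 was lower in mutants at an unadjusted p under 0.05, against 1.66% of all genes tested, and none had an adjusted p under 0.05 in limma. With the replicate block 7 of the 45 had an unadjusted p under 0.05, against 6.0% of all genes, among them *Gas1*, *Gpc6*, *Stk36*, *Efcab7*, *Ift172* and *Foxc2*, named here after their values were seen. The median log2 fold change of the 45 genes was 0.00090, with 23 over and 22 under 0. In 1 of the 45 every mutant was below every control and in 1 every mutant was above. Of all genes tested, 5.0% had no overlap in either direction.

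Of the 7 tested genes on the lists for ligand supply and other ligand binders, 7 had a log2 fold change under 0, against 47.2% of all genes tested, and the intervals of all but *Gpc6* included 0. *Ptch1* itself, at 0.00032, was not on these lists. *Gpc6*, a glypican of the cell surface, was at 19.4, 25.3 and 21.9 FPKM in controls and 19.1, 17.6 and 18.0 in mutants. Its groups did not overlap, as in 5.0% of all genes tested. Its log2 fold change was -0.27 (standard error 0.11, unadjusted p = 0.039 in limma). *Gpc3*, a glypican that binds Hedgehog ligand and restrains the signal, had the highest level of these genes, between 231 and 325 FPKM over all libraries, and a log2 fold change of -0.073 (standard error 0.13). *Gas1*, a co-receptor that works with Cdon and Boc, was at 85.8, 61.7 and 59.3 in controls and 77.5, 58.3 and 53.5 in mutants. The first replicates were the highest libraries of *Gas1*, as for *Shh*, and the mutant was lower within each replicate number. Of the genes for ligand release, *Scube1*, *Scube3* and *Disp1* passed the filter, with log2 fold changes of -0.079, -0.057 and -0.12, all within 2 standard errors of 0. The other ligands were low, *Ihh* at no more than 0.326 FPKM and *Dhh* at no more than 0.719 in any library.

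All 17 genes of the relay between Smo and the Gli proteins passed the filter, 11 over and 6 under 0, with a median log2 fold change of 0.011. *Stk36*, the mammalian homologue of the fly Fused kinase, was at 6.56, 5.58 and 4.86 FPKM in controls and 6.90, 6.70 and 8.55 in mutants. Its groups did not overlap, as in 5.0% of all genes tested. Its log2 fold change was 0.33 (standard error 0.13, unadjusted p = 0.037 in limma). *Sufu*, chosen after its values were seen, which holds Gli proteins inactive, was at 22.4 to 25.8 in controls and 24.8 to 25.2 in mutants, with a difference of 0.027 on the log2 scale (standard error 0.080). The kinase genes *Csnk1a1* and *Prkaca*, which mark Gli proteins for processing, and *Prkar1a*, a regulatory subunit of protein kinase A, differed by 0.0065, 0.011 and -0.010 on the log2 scale.

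Of the 13 tested genes of the primary cilium, 6 were over and 7 under 0, and the median was -5.7e-05. *Kif3a*, a motor subunit of transport in the cilium, was at 19.1, 30.8 and 30.0 FPKM in controls and 22.0, 28.6 and 30.8 in mutants, and was lower in both first replicates than in every other library. With *Kif3a*, 7 of the 13 tested genes were split in this way, against 34.7% of all genes tested, and *Tctn1* and *Fuz* were split the other way, against 18.4%. *Ift172*, a subunit of the transport particle also chosen after its values were seen, had the largest difference of the list, at -0.31 (standard error 0.13, unadjusted p = 0.051 in limma). Of 8 tested target genes, 6 were over and 2 under 0. In both first replicates 4 of the 8 were higher than in every other library and 0 were lower, against 18.4% and 34.7% of all genes tested. The cyclin genes *Ccnd1* and *Ccnd2* were at 107 to 119 and 102 to 129.7 FPKM over all libraries, with log2 fold changes of 0.035 and 0.020, and *Osr2*, a zinc finger factor of the palatal shelves, averaged 25.8 in controls and 22.8 in mutants, a difference of -0.17 on the log2 scale (standard error 0.10).

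**Figure D5:**
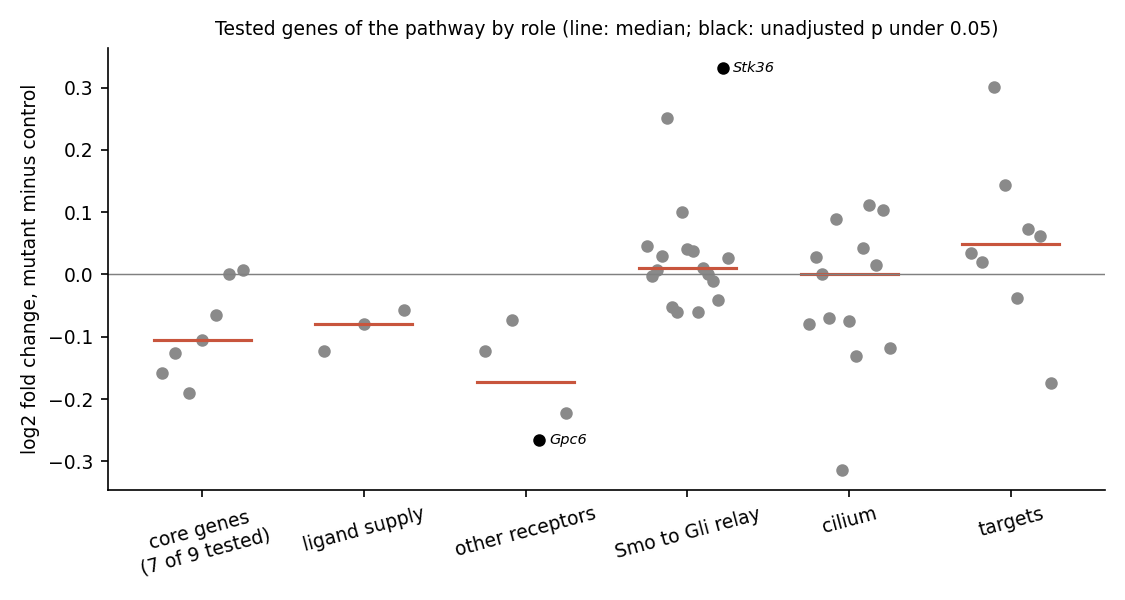
Log2 fold change of the tested genes of the pathway, grouped by role, with 1 point per gene and a line at the median of the list. Only *Gpc6* and *Stk36* (black) had an unadjusted p under 0.05, and the medians lie between -0.17 and 0.049.

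The summed levels of neuronal markers did not overlap between the groups. The sum of 8 neuronal markers was 660 to 711 FPKM in controls and 775 to 852 in mutants, with 3 of the 8 past an unadjusted p of 0.05, against 1.66% of all genes tested, and 6 of the 8 with the replicate block, against 6.0%. None had an adjusted p under 0.05 in limma. The sum of 8 forebrain progenitor markers was 142 to 298 in controls and 219 to 247 in mutants. The epithelium sum was 155 to 271 in controls and 157 to 214 in mutants. The skeletal muscle sum was 143 to 363 in controls and 138 to 207 in mutants, with 6 of 6 log2 fold changes under 0 and a median of -0.40, and 0 of the 6 had an unadjusted p under 0.05 in limma, or 4 with the replicate block. The 4 tested erythroid markers had log2 fold changes over 0, with a median of 0.36, and 0 of them had an unadjusted p under 0.05 in limma. The part of these tissues in the Hedgehog pathway values was not tested.

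The genes with the most similar profile over the 6 libraries were sought by the root-mean-square difference between profiles of log2(FPKM + 1), each centred on its own mean. For *Gli1* they were *Hps5*, *Scrn3* and *Tbce*, at 0.037, 0.038 and 0.038, where the median over all genes tested was 0.22. For *Ptch1* they were *Sos1*, *Ddx6* and *Ddi2*, at 0.020, 0.021 and 0.022, against a median of 0.14. With 6 libraries and 10061 genes these are descriptions only.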

How the data were processed

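RNA-Seq was performed on poly(A)+ RNA of craniofacial tissue from 3 control and 3 *Rbfox2* mutant embryos, grouped by their labels, which call the replicates independent. The authors prepared stranded libraries, sequenced paired-end reads of 151 bases, aligned them to GRCm38 with STAR and used Cuffdiff for expression. FastQC 0.11.4 is in the submitters' processing notes. Versions of the other tools and the annotation are not given in the sources used here. The authors deposited 1 FPKM value per gene and library, and the series table and the tables of single samples held the same values (0 differences). The deposited files hold no read counts, so no counting error could be given for a value.

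Genes with an FPKM over 5 in all libraries of a group, the filter the methods state for Cuffdiff, were compared on log2(FPKM + 1), a pseudocount of 1, with limma 3.58.1 in R 4.3.3 (intensity trend, no covariates) and Benjamini-Hochberg adjustment. The fit was also run on simulated data with independent libraries. Those data lacked the split of the first replicates, so they cannot tell how the fit behaves on these libraries. *Shh* and *Hhip* were taken from the fit with no filter. The members, lists and tests were chosen with earlier results of these data known. Named were all 9 genes, listed pathway genes with an unadjusted p under 0.05, some of the most abundant of each list, the nearest profiles of *Gli1* and *Ptch1*, and *Rbfox2*. Other listed genes were named outside this rule, among them *Sufu*, *Ift172*, *Efcab7* and *Foxc2* after their values were seen. Positions come from GENCODE M21 (GRCm38), in which 95.0% of gene identifiers were found, and promoters from RefSeq (GRCm38.p6), in which 6 of the 9 genes were matched. One list entry was not found by name, and the values of 1 listed gene are not reported here.

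The main fit and the permutation tests of mutants against controls left the samples unpaired. Pairing by replicate number was used for the replicate block and for the differences within replicate numbers. Deviations from group means correlated, across genes, at 0.64, 0.26 and 0.51 between the control and mutant numbered 1, 2 and 3, and the pairing comes from these values, since no label ties a number to a litter. Control 3 and mutant 2 correlated at 0.40 and control 2 and mutant 3 at 0.23, so that numbers 2 and 3 were not told apart. Alternatives were a pseudocount of 0.1, median-ratio scaling, quantile normalization, the replicate block, a lower FPKM filter (1), no filter, no trend, a term for the first replicates, Y-linked expression (the mean of *Ddx3y*, *Eif2s3y*, *Kdm5d* and *Uty*, over 1 FPKM in 2 mutant libraries and 0 control libraries) as a covariate, replicates 2 and 3 only, and each library left out.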

Additional observations from a re-analysis of the deposited data

How the results depend on the processing

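No alternative gave a pathway gene an adjusted p under 0.05. The count of the 7 tested genes with an unadjusted p under 0.05, 0 over all libraries, was 2 with replicates 2 and 3 only, and between 0 and 1 with 1 library left out (1 without control replicate 1, 1 without mutant replicate 1). It stayed at 0 with the replicate block, which changed no call of the 9 genes. The count of genes without overlap between groups, 1 over all libraries, was 7 of 9 with replicates 2 and 3 only, where 37% of all genes with a value over 0 did not overlap, and 1 to 5 with 1 library left out (5 without control replicate 1, 3 without mutant replicate 2, 2 without mutant replicate 1 or 3, against 11.3% to 21.6% of those genes), settings added after the data were seen. For other pathway genes the count of unadjusted p under 0.05, 2 over all libraries, was 7 with the replicate block, 6 with a term for the first replicates, 5 with replicates 2 and 3 only, 1 with no filter, and 0 to 5 with 1 library left out (0 without control replicate 2 or 3 or mutant replicate 3, 1 without mutant replicate 2, 5 without mutant replicate 1). For all genes it was 167, against 604 with the replicate block, 611 with the term for the first replicates, 304 with an FPKM filter of 1, 663 with no filter, 1130 with replicates 2 and 3 only, and 78 to 690 with 1 library left out. Adjusted p under 0.05 was reached by 0 genes, by 3 with the term for the first replicates, by 4 with replicates 2 and 3 only, and by 0 to 5 with 1 library left out (5 without mutant replicate 3). *Ptch1*, at a log2 fold change of 0.00032, turned to -0.0042 with median-ratio scaling and to -0.092 with replicates 2 and 3 only, and ran from -0.069 to 0.051 with 1 library left out. *Gli3* turned to 0.073 with the Y-linked covariate and ran from -0.147 to 0.0078. *Smo* ran from -0.023 to 0.037 and *Shh* from -0.14 to 0.34 with 1 library left out. The causes were not tested.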
